A study of Mus musculus with 6 samples.

Results

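The 8 genes described here encode enzymes that make or use alpha-ketoglutarate (αKG), and their RNA was followed in mouse embryonic fibroblasts (MEFs) during reprogramming with and without AKT activation. The genes were given by name as *Aco1*, *Idh1*, *Idh2*, *Idh3a*, *Idh3b*, *Idh3g*, *Glud1* and *Ogdh*, and all 8 were found among the 54331 genes listed by Ensembl identifier. All cells came from male E13.5 embryos of a mixed C57BL/6, DBA/2 and ICR background that carried the *Oct4*-EGFP transgene, and several embryos were pooled. Every well had received retroviral Oct4, Sox2 and Klf4 together with AKT-MER, in which myristoylated AKT is joined to an altered estrogen receptor (OSKA). The OSKA + 4OHT group (n = 3) was given 4-hydroxytamoxifen (4OHT), the ligand that activates AKT-MER, from 3 dpi, and the OSKA − 4OHT group (n = 3) was given ethanol. RNA was taken at 10 dpi. Wells are listed in the order of replicates 1, 2 and 3, and "without 4OHT" and "with 4OHT" stand for these OSKA groups. The wells were split from infected cells at 3 dpi, so the p-values measure the spread between wells. Cells with 4OHT but without AKT-MER were not analysed here.

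αKG stands where the TCA cycle meets amino acid metabolism. Isocitrate dehydrogenases form it from isocitrate, glutamate dehydrogenase and transaminases form it from glutamate, and the oxoglutarate dehydrogenase complex consumes it inside mitochondria. It is also the co-substrate of the TET enzymes and of many histone demethylases, and the isocitrate route exists both in the cytosol and in mitochondria.

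Of the 8 genes, *Idh2* was the one that passed the test, with a level about 2-fold higher in the OSKA + 4OHT group. *Glud1*, the most abundant of them, had a lower level in every OSKA + 4OHT well (0.676 of the other group on average), and this difference just missed the threshold. *Idh1*, the cytosolic counterpart of *Idh2*, had nearly the same value in all 6 libraries. The promoters of these 3 genes are shown because *Idh2* and *Glud1* hold the largest fitted differences of the 8 in either direction and *Idh1* the smallest. They are taken from RefSeq (GRCm38.p6) and run 5′ to 3′ from 250 bases before to 50 bases after a start site, and where a gene had several windows the one nearest to its annotated start was used. Capitals mark the GC box GGGCGG on either strand.

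*Idh2*, chr7:80115301-80115600, minus strand: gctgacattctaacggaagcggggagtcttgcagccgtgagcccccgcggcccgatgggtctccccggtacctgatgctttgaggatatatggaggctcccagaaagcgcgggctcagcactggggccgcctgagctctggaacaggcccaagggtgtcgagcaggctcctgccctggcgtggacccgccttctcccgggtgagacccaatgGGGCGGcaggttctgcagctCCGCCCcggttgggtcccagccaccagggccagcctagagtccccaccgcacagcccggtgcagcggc

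*Glud1*, chr14:34310477-34310776, plus strand: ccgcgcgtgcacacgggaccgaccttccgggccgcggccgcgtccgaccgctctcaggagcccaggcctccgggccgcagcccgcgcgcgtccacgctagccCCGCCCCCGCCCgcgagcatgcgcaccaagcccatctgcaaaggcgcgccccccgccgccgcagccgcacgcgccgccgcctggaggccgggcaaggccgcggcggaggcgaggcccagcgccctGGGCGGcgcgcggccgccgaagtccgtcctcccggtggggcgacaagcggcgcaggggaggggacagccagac

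*Idh1*, chr1:65186430-65186729, minus strand: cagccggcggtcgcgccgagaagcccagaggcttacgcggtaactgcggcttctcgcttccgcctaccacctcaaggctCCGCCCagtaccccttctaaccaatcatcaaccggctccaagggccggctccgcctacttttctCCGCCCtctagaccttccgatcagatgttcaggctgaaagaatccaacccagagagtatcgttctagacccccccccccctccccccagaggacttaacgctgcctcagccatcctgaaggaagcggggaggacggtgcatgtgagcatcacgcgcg

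The *Idh2*, *Glud1* and *Idh1* windows have a GC content of 68.3%, 81.0% and 62.0%, against a median of 52.7% over 32851 mouse promoter windows of the same length. They hold 20, 51 and 23 CpG dinucleotides, and the median of all windows is 7. The GC box, the letters bound by SP and KLF factors, was found at 2, 3 and 2 places, and 35.7% of all windows hold it. The letters GCGTG, 1 form of the core that HIF factors bind, were found once in *Idh2*, 3 times in *Glud1* and once in *Idh1*, and 32.4% of all windows hold them. None of these 3 windows held ACGTG (19.6% of all windows), the E-box CACGTG (7.15%), which contains ACGTG, the CRE TGACGTCA (1.79%), the FOXO letters TGTTTAC (3.65%), the octamer ATGCAAAT (1.74%), the SOX letters CATTGTT (3.78%) or the KLF letters GGGNGTGGC (5.76%). Both strands were searched. Of the 8 genes, 7 were matched to a window (*Idh3a* was not). *Aco1* held 3 GC boxes, *Ogdh* 1 GC box, 1 CRE, 1 ACGTG and 2 GCGTG, *Idh3g* 1 ACGTG and 1 GCGTG, and *Idh3b* none of the letters searched. A match describes the letters only.

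The values are TPM, the share of transcripts per length scaled to a fixed total, and each library adds up to 1000000, so the sequencing depth is unknown. Between 15814 and 18230 genes were above 0 in a library, and *mt-Atp8* took from 6.45% to 10.2% of the TPM. The correlation across genes, which are no replicates, was from 0.809 to 0.864 between wells of a group and from 0.792 to 0.833 between groups. Fibroblast markers were present throughout, with a summed level of 7813 to 9639.9 TPM in the OSKA − 4OHT and 4625 to 5729 TPM in the OSKA + 4OHT libraries (7 of 7 genes at a mean of at least 1 TPM). The summed level of 7 pluripotency markers was 16.7 to 26.6 and 78.3 to 97.5 TPM, with *Dppa5a*, *Lin28a* and *Utf1* listed at 0 in all OSKA − 4OHT libraries. *Epcam*, which is also an epithelial gene, made up 14.6 to 23.9 and 41.0 to 50.1 TPM of this sum, and *Esrrb* overlapped between the groups. The sum of 5 epithelial markers was 15.1 to 50.5 (the highest in replicate 3, with 18.2 TPM next) and 111 to 119 TPM, and *Krt18* and *Esrp1* of that list overlapped. The sum of 6 macrophage markers was 117 to 131 and 73.4 to 83.6 TPM, and that of 4 endothelial markers 21.4 to 27.9 and 28.1 to 37.6 TPM. Most of the macrophage difference was that of *Lyz2* (90.1 to 101 and 46.5 to 60.7 TPM). *Csf1r* was also lower (2.88 to 4.29 and 0.935 to 2.71 TPM), and *Ptprc*, *Adgre1*, *Cd68* and *Aif1* overlapped between the groups. In the endothelial list 2 of 4 genes reached a mean of 1 TPM, and its sums lay barely apart. Only *Tek* of that list was apart (12.8 to 15.7 and 21.2 to 23.2 TPM), and *Pecam1*, *Cdh5* and *Kdr* overlapped between the groups. *Thy1* of the fibroblast list was higher with 4OHT (133 to 208 and 222 to 389 TPM), against the direction of its sum, and *Pdgfra* overlapped. The part of these differences in the results was not tested. In such bulk samples fewer cells of a type and less RNA per cell cannot be told apart.

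For the test, limma-trend was fitted to log2(TPM + 0.5) of the 15382 genes whose mean reached 1 TPM. Calls needed an adjusted p (Benjamini-Hochberg) under 0.05. By this rule 1 of the 8 genes was called higher, where 3.52% of all tested genes were, and 0 of the 8 were called lower, where 1.97% of all were (5.49% in either direction). The called gene, *Idh2*, also passed the added threshold of a fold change above 2, which 2.87% of all genes did upward and 1.37% downward. *Idh2* fell just short of that fold with trimmed-mean scaling (log2 fold change 0.958), with quantile normalization (0.965) and without OSKA + 4OHT replicate 1 (0.981). By limma-trend, 3 of the 8 had an unadjusted p under 0.05, against 21.3% of all tested genes. In 3 of the 8 the wells of both groups lay apart, and these were the same genes, *Idh2*, *Glud1* and *Ogdh*, against 28.2% of all tested genes. Values above 0 were fitted for 4 of the 8, against 59.3% of all. Nothing particular to the 8 genes is read from these counts. The median log2 fold change was 0.19 over the 8 genes and 0.14 over all tested genes, so a change is also given relative to 0.14 where it matters.

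**Figure D1:**
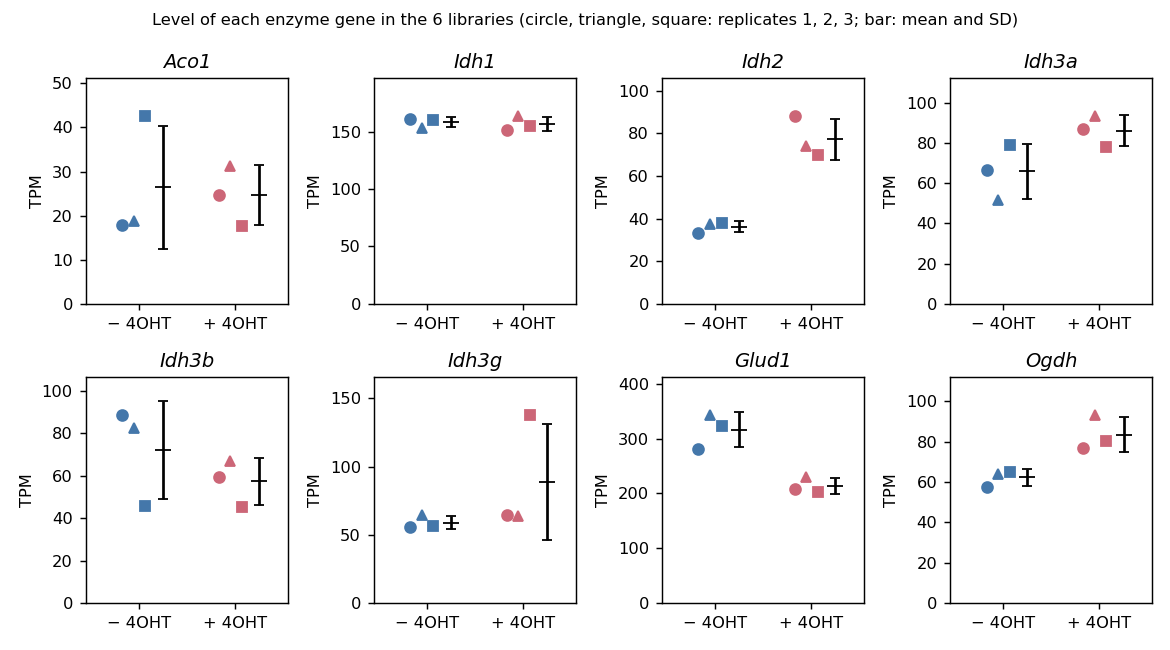
Level of each of the 8 enzyme genes in TPM (vertical axis, from 0) in the OSKA − 4OHT (blue) and OSKA + 4OHT (red) wells; circles, triangles and squares are replicates 1, 2 and 3, and the bar is the mean with its SD (n = 3). The groups are apart for *Idh2*, *Glud1* and *Ogdh*, and single wells stand out for *Aco1* (42.6 TPM) and *Idh3g* (138 TPM).

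In the cytosol, aconitase and *Idh1* turn citrate into αKG. *Aco1* (ENSMUSG00000028405) encodes the cytosolic aconitase, which also serves as iron regulatory protein when it lacks its iron-sulfur cluster. It lies on chromosome 4 of GRCm38 from 40143081 to 40198338 on the plus strand. *Aco1* stood at 17.9, 18.8 and 42.6 TPM without 4OHT and at 24.8, 31.4 and 17.7 TPM with it. The groups overlapped, and OSKA − 4OHT replicate 3 was more than 2-fold above the other wells of its group. The group means were 26.4 ± 14.0 TPM without and 24.6 ± 6.82 TPM with 4OHT (SD, n = 3 each), and the log2 fold change was -0.021 with a 95% interval from -0.96 to 0.92 (adjusted p = 0.985, limma-trend). Such an interval allows a change of almost 2-fold in either direction. Without OSKA − 4OHT replicate 3 the log2 fold change was 0.38, without OSKA + 4OHT replicate 3 it was 0.19 and with sample weights it was 0.13, so not even its sign is fixed.

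*Idh1* (ENSMUSG00000025950; chromosome 1, 65158616 to 65186500, minus strand) encodes the NADP-dependent isocitrate dehydrogenase of the cytosol and peroxisomes. It stood at 161, 153 and 160.4 TPM without 4OHT and at 151, 164 and 155 TPM with it. All 6 values lay within a narrow band and the groups overlapped. The means were 158 ± 4.11 and 156 ± 6.26 TPM (SD, n = 3 each). The log2 fold change was -0.016 (standard error 0.106, adjusted p = 0.952, limma-trend), and its 95% interval from -0.27 to 0.24 leaves out a change as large as that of *Idh2*. Its residual SD was 0.048 on the log2 scale, and only 0.496% of the 4635 tested genes at levels within the range of the 8 genes (a mean of 25.5 to 265 TPM) had a smaller one. The median residual SD of those 4635 genes was 0.29. The sign of this small value turned without OSKA + 4OHT replicate 1 (0.0068), and trimmed-mean scaling moved it to -0.14.

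*Idh2* (ENSMUSG00000030541; chromosome 7, 80094846 to 80115392, minus strand) encodes the NADP-dependent isocitrate dehydrogenase of mitochondria. It stood at 33.2, 37.5 and 37.7 TPM without 4OHT and at 88.1, 73.8 and 69.7 TPM with it. Every OSKA + 4OHT well lay well above every OSKA − 4OHT well. The mean level rose 2.14-fold, from 36.2 ± 2.52 to 77.2 ± 9.63 TPM (SD, n = 3 each). The log2 fold change was 1.08 (standard error 0.153, 95% interval from 0.71 to 1.45, adjusted p = 0.0160, limma-trend), or 0.93 above the median of all tested genes, and it was the 1936th highest of 15382. This call was narrow. The adjusted p from limma-trend was 0.0528 without OSKA − 4OHT replicate 1, 0.0572 without OSKA − 4OHT replicate 2, 0.0699 without OSKA + 4OHT replicate 1 and 0.0680 without OSKA + 4OHT replicate 2, while the log2 fold change stayed between 0.98 and 1.15 whichever of the 6 wells was left out. A gene model that overlaps it on the same strand, *Gm45203*, was listed at 0 in all libraries.

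**Figure D2:**
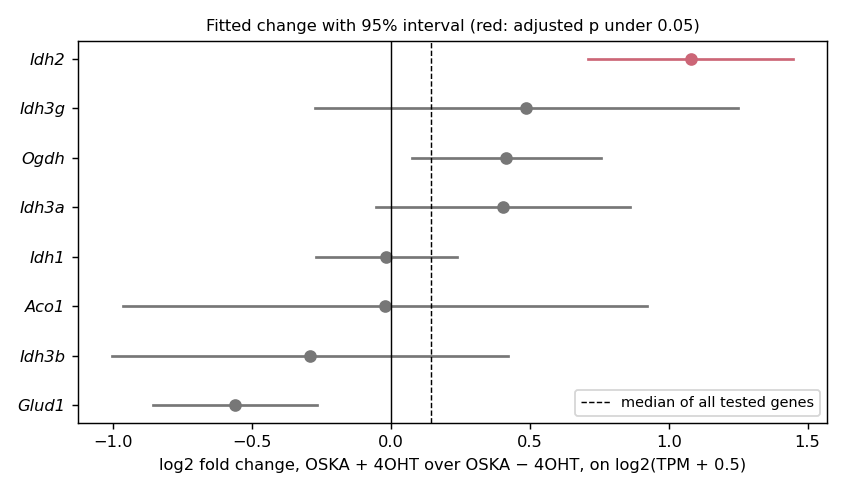
Fitted log2 fold change of each enzyme gene on the log2(TPM + 0.5) scale (horizontal axis), OSKA + 4OHT over OSKA − 4OHT, with its 95% interval from limma-trend; red marks an adjusted p under 0.05 and the dashed line the median of all tested genes (0.14). *Idh2* stands at 1.08, *Glud1* at -0.56, and the intervals of *Idh3g*, *Aco1* and *Idh3b* are the widest.

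*Idh3a*, *Idh3b* and *Idh3g* encode the subunits of the NAD-dependent isocitrate dehydrogenase, the form that works in the TCA cycle, where *Idh3a* supplies the catalytic subunit. No member of this group was called, and their fitted changes did not share a sign. *Idh3a* (ENSMUSG00000032279; chromosome 9, 54586334 to 54604661, plus strand) stood at 66.5, 51.7 and 79.1 TPM without 4OHT and at 86.8, 93.3 and 78.1 TPM with it. The groups touched only through OSKA − 4OHT replicate 3 and OSKA + 4OHT replicate 3, and the log2 fold change was 0.40 (95% interval from -0.055 to 0.86, adjusted p = 0.289, limma-trend). That of *Idh3a* was 0.24 without OSKA − 4OHT replicate 2 and 0.55 without OSKA − 4OHT replicate 3. *Idh3b* (ENSMUSG00000027406; chromosome 2, 130279309 to 130284547, minus strand) stood at 88.7, 82.5 and 45.7 TPM without 4OHT and at 59.5, 67.1 and 45.5 TPM with it. Its lowest values were those of replicate 3 in both groups, and the log2 fold change was -0.29 (95% interval from -1.0 to 0.42, adjusted p = 0.609, limma-trend). That of *Idh3b* was -0.59 without OSKA − 4OHT replicate 3 and -0.12 without OSKA − 4OHT replicate 1. *Idh3g* (ENSMUSG00000002010; chromosome X, 73778963 to 73786897, minus strand) stood at 56.0, 64.2 and 56.7 TPM without 4OHT and at 64.6, 63.5 and 138 TPM with it. The log2 fold change was 0.49 (95% interval from -0.27 to 1.25, adjusted p = 0.442, limma-trend). OSKA + 4OHT replicate 3 alone carried most of this difference, and without it the log2 fold change of *Idh3g* was 0.12.

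Within a library the subunits also took changing shares of their own sum. *Idh3b* made up 42.0%, 41.6% and 25.2% of the subunit TPM without 4OHT and 28.2%, 30.0% and 17.4% with it. *Idh3g* made up 26.5% to 32.4% in 5 libraries that exclude OSKA + 4OHT replicate 3, where it made up 52.7%. The summed level of the subunits was 211, 198 and 181 TPM against 211, 224 and 261 TPM, and these ranges overlapped. For *Idh3b*, stretches of 53 to 91 bases were at least 90% identical to transcripts of 21 other genes. *Idh3g* has 9 annotated transcripts of 395 to 2080 bases and *Idh3b* has 4 of 452 to 2049 bases, and the deposited table does not give the transcripts apart. The part of these features in the spread was not tested.

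*Glud1* (ENSMUSG00000021794; chromosome 14, 34310727 to 34345265, plus strand) encodes the mitochondrial glutamate dehydrogenase, which interconverts glutamate and αKG. It stood at 281, 343 and 324 TPM without 4OHT and at 209, 230.1 and 203 TPM with it. All OSKA + 4OHT wells lay below all OSKA − 4OHT wells. The group means were 316 ± 31.7 TPM without and 214 ± 14.3 TPM with 4OHT (SD, n = 3 each), a ratio of 0.676. The log2 fold change was -0.56 (standard error 0.123, 95% interval from -0.86 to -0.26, unadjusted p = 0.00322, adjusted p = 0.0543, limma-trend), so the gene was not called. It was -0.70 relative to the median of all tested genes. Trimmed-mean (TMM-type) scaling, which brought that median to 0.032, gave *Glud1* a log2 fold change of -0.68 and an adjusted p of 0.0239 by limma-trend. Over all 15 alternatives the adjusted p of *Glud1* from limma was 0.0239 to 0.169, with 3 under 0.05, and it was 0.149 without the trend. The pseudogene *Glud-ps*, 97.6% identical to *Glud1* over 656 bases, stood at 0, 4.20 and 12.4 TPM without 4OHT and at 0, 2.12 and 0 TPM with it. Adding it to *Glud1* gave 281, 348 and 337 TPM against 209, 232 and 203 TPM, and the groups still did not overlap.

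*Ogdh* (ENSMUSG00000020456; chromosome 11, 6291633 to 6356642, plus strand) encodes the subunit of the oxoglutarate dehydrogenase complex that decarboxylates αKG. It stood at 57.5, 64.1 and 65.1 TPM without 4OHT and at 76.6, 93.1 and 80.3 TPM with it. The groups did not overlap. The group means were 62.2 ± 4.13 TPM without and 83.3 ± 8.71 TPM with 4OHT (SD, n = 3 each), and the log2 fold change of 0.41 (95% interval from 0.075 to 0.75) had an adjusted p of 0.159 by limma-trend. It was 0.27 above the median of all tested genes, and no fit that was run gave an adjusted p under 0.05. The partners of *Ogdh* in the complex, *Dlst* and *Dld*, had means of 121 ± 14.6 and 106 ± 17.4 TPM and of 62.2 ± 9.75 and 66.7 ± 5.75 TPM (SD, n = 3 each, OSKA − 4OHT first). Their groups overlapped, with adjusted p-values of 0.568 and 0.744 by limma-trend. *Mrps36*, a further subunit of the complex that is named after its values were seen, stood at 45.1, 64.5 and 44.4 TPM without 4OHT and at 77.2, 67.8 and 94.4 TPM with it, with no overlap (log2 fold change 0.64, adjusted p = 0.151, limma-trend).

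In order of level, TPM being a measure per transcript length, *Glud1* came first and *Idh1* second in both groups, and neither overlapped the gene after it. In the OSKA − 4OHT group *Idh3b* (72.3 ± 23.2 TPM), *Idh3a* (65.8 ± 13.7 TPM), *Ogdh* (62.2 ± 4.13 TPM) and *Idh3g* (59.0 ± 4.56 TPM) followed (SD, n = 3 each), and neighbours among these 4 overlapped. *Idh2* was seventh, below all of them in every well but overlapping *Aco1*, the lowest. In the OSKA + 4OHT group *Idh2* lay within the same band, after *Idh3g* (88.6 ± 42.6 TPM), *Idh3a* (86.1 ± 7.66 TPM) and *Ogdh*, overlapping *Ogdh* and above *Idh3b* (57.4 ± 10.96 TPM) in every well (SD, n = 3 each). The summed level of the 8 genes was 762 to 816 TPM in the OSKA − 4OHT and 761 to 816 TPM in the OSKA + 4OHT libraries.

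**Figure D3:**
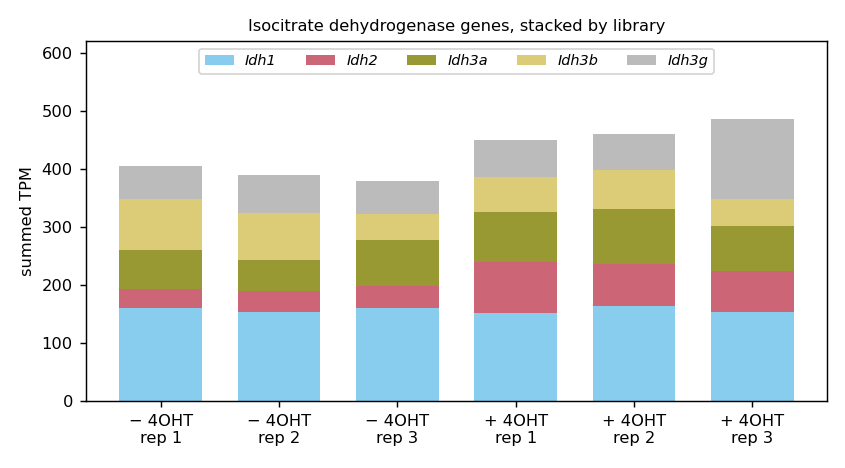
Stacked TPM of the 5 isocitrate dehydrogenase genes (vertical axis, from 0) in each library. *Idh1* (bottom) is nearly level, *Idh2* (red) is taller in each OSKA + 4OHT library, and *Idh3g* (top) is tallest in OSKA + 4OHT replicate 3.

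A ratio within a library does not depend on how that library was scaled, so 7 ratios were compared. An exact permutation test of 3 wells against 3 cannot give a 2-sided p under 0.1, and the lowest adjusted value over the 7 ratios was 0.233. The log2 ratio of *Idh1* to *Idh2* was 2.27, 2.03 and 2.09 in OSKA − 4OHT replicates 1 to 3 and 0.78, 1.15 and 1.15 in OSKA + 4OHT replicates 1 to 3 (exact p = 0.1). *Idh2* thus made up 17.1% to 19.6% of the *Idh1* and *Idh2* TPM in the OSKA − 4OHT libraries and 31.1% to 36.8% in the OSKA + 4OHT libraries. The log2 ratio of *Glud1* to *Ogdh* was 2.29, 2.42 and 2.32 against 1.45, 1.30 and 1.34, a difference of -0.98 between the group means (exact p = 0.1). Its pooled SD of 0.072 was the smallest among the 7 ratios. The log2 ratio of *Idh2* to the summed *Idh3* subunits had group means of -2.45 ± 0.20 and -1.59 ± 0.32 (SD, n = 3 each), with no overlap (exact p = 0.1). The groups overlapped in the other 4 ratios, *Idh1* to *Aco1*, *Idh3a* to *Idh3b*, *Idh3a* to *Idh3g* and the summed isocitrate dehydrogenase genes to *Ogdh* (exact p from 0.4 to 1). The summed level of the 5 isocitrate dehydrogenase genes was 380 to 405 TPM in the OSKA − 4OHT and 450.5 to 486 TPM in the OSKA + 4OHT libraries.

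The other genes of αKG metabolism were described through 7 lists, with 71 of 76 rows tested. Of these, 5 were called higher and 0 lower by the same limma-trend rule (3.52% and 1.97% of all tested genes), and 21 of 71 had an unadjusted p under 0.05 (21.3% of all tested genes). Wells of both groups lay apart in 28 of the 71 (28.2% of all), which were 5 of 15 in the TCA cycle list, 5 of 12 transaminases, 5 of 11 in glutamine and glutamate supply, 4 of 6 carriers, 1 of 3 dehydrogenases of 2-hydroxyglutarate, 8 of 14 in pyruvate entry and 0 of 10 regulators. Nothing particular to a list is read from these counts. They include *Pdk4* of the pyruvate list, which passed the filter only through its OSKA − 4OHT wells. The called genes were *Bcat1* and *Got2* among the transaminases, *Slc7a11* in glutamine and glutamate supply, and *Pdk1* and *Pcx* in pyruvate entry, where *Got2* and *Pcx* are named after their values were seen. In the TCA cycle list 0 of 15 genes were called by limma-trend and 5 had an unadjusted p under 0.05. Its median log2 fold change was 0.14, and its lowest p belonged to *Suclg1*, a subunit of succinyl-CoA ligase (34.0 ± 10.5 and 60.9 ± 8.0 TPM, SD, n = 3 each, adjusted p = 0.131, limma-trend). Without a library the number called over all lists fell to as few as 0, which was the count without OSKA + 4OHT replicate 1 and without OSKA + 4OHT replicate 2. It was 2 without OSKA − 4OHT replicate 1, 3 without OSKA − 4OHT replicate 2 and 3 without OSKA + 4OHT replicate 3.

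*Bcat1*, the cytosolic branched-chain aminotransferase that turns αKG into glutamate, rose from 66.9, 87.1 and 90.7 TPM to 232, 254 and 197 TPM in replicates 1 to 3. The log2 fold change was 1.48 (standard error 0.172, adjusted p = 0.00925, limma-trend), and the adjusted p was 0.0562 without OSKA + 4OHT replicate 1 and 0.0506 without OSKA + 4OHT replicate 2. *Got2*, the mitochondrial aspartate aminotransferase, rose from 73.8 ± 2.38 to 114 ± 5.14 TPM (SD, n = 3 each, adjusted p = 0.0355, limma-trend). Its adjusted p was from 0.0826 to 0.134 when any 1 library was left out, 0.0680 after trimmed-mean scaling, 0.0556 after quantile normalization and 0.0905 by limma without trend. The transaminase list had a median log2 fold change of 0.52, against 0.14 over all tested genes, with 9 of 12 values above 0 where 59.3% of all were. Among these 9, *Kyat3* had a fitted value of 0.42 (standard error 1.28) although its mean was lower with 4OHT (7.16 and 3.09 TPM). *Kyat3* was listed at 0 in OSKA − 4OHT replicate 1. *Gpt*, also among the 9, reached a mean of 1 TPM only in the OSKA + 4OHT group (0.969 and 2.81 TPM), and its groups overlapped. Both are named after their values were seen.

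*Slc7a11*, the cystine transporter that exports glutamate in exchange, rose from 6.48, 7.90 and 5.56 TPM to 24.9, 25.5 and 19.9 TPM in replicates 1 to 3 (log2 fold change 1.75, standard error 0.216, adjusted p = 0.0111, limma-trend). The adjusted p was 0.0609 without OSKA + 4OHT replicate 1 and 0.0585 without OSKA + 4OHT replicate 2. The other members of its list gave no call, and the list had a median log2 fold change of -0.20 over 11 tested genes and 3 values above 0.

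*Pdk1*, the kinase that inactivates pyruvate dehydrogenase, rose from 17.0, 20.6 and 24.6 TPM to 61.5, 79.2 and 42.3 TPM in replicates 1 to 3 (log2 fold change 1.51, adjusted p = 0.0326, limma-trend). Its adjusted p was under 0.05 in only 1 of the 6 fits lacking a well, that without OSKA + 4OHT replicate 3 (0.0354), and from 0.0628 to 0.118 in the other 5. By limma without trend it was 0.0570. *Pcx*, the pyruvate carboxylase that makes oxaloacetate, also rose, with 50.7 ± 11.2 TPM without and 120.1 ± 7.98 TPM with 4OHT (SD, n = 3 each). The wells of the groups did not overlap (log2 fold change 1.26, adjusted p = 0.0199, limma-trend). Its adjusted p was under 0.05 in 2 of these 6 fits, those without OSKA − 4OHT replicate 2 (0.0459) and without OSKA − 4OHT replicate 3 (0.0320), and from 0.0583 to 0.0885 in the other 4. The pyruvate list had a median log2 fold change of -0.15 over 14 genes, and its 8 genes without overlap were 4 higher and 4 lower ones. *Pdk4*, 1 of the lower ones and named after its values were seen, had group means of 1.68 TPM without and 0.350 TPM with 4OHT. It passed the filter of a mean of 1 TPM only through the OSKA − 4OHT group, and it stayed in 3 of the 6 fits lacking a well.

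In the carrier list 0 of 6 tested genes were called by limma-trend (2 had an unadjusted p under 0.05), all 6 fitted values were above 0 (59.3% of all tested genes were) and the median was 0.72, against 0.14 over all genes. Its lowest p belonged to the dicarboxylate carrier gene *Slc25a10* (15.2 ± 1.83 and 27.5 ± 4.82 TPM, SD, n = 3 each, adjusted p = 0.0687, limma-trend). *Slc25a12*, named after its values were seen, stood at 15.4, 14.4 and 80.8 TPM without 4OHT and at 55.6, 109 and 64.6 TPM with it. Its adjusted p from limma-trend was 0.287, and it was under 0.05 in 1 of the 6 fits lacking a well (0.0369). Of the 3 genes for 2-hydroxyglutarate dehydrogenases 0 passed and 1 had an unadjusted p under 0.05 by limma-trend, and the nearest was *Adhfe1*, whose product converts 4-hydroxybutyrate while forming 2-hydroxyglutarate from αKG. *Adhfe1* stood at 1.86, 1.78 and 2.16 TPM without 4OHT and at 5.66, 4.91 and 5.86 TPM with it (adjusted p = 0.0511, limma-trend). In the list of regulators and cofactor genes 0 of 10 rows were called and 0 of 10 had an unadjusted p under 0.05, and its lowest p belonged to the iron-sulfur scaffold gene *Iscu* (adjusted p = 0.368, limma-trend).

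**Figure D4:**
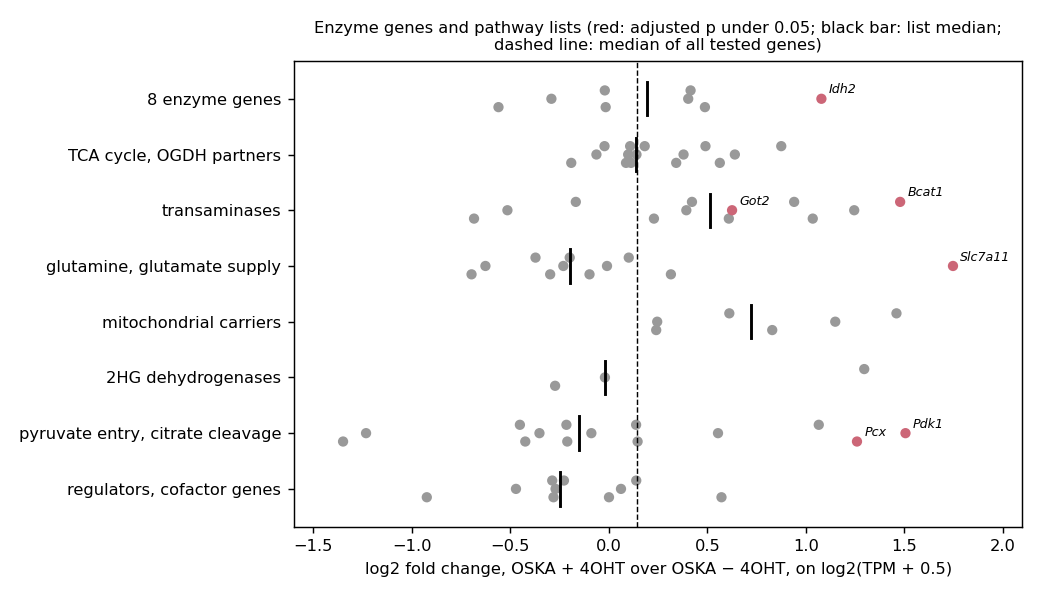
Log2 fold change on the log2(TPM + 0.5) scale (horizontal axis) of the 8 enzyme genes and of the tested genes of each pathway list; each point is a gene, red marks an adjusted p under 0.05, black bars are list medians and the dashed line is the median of all tested genes (0.14). The called points, *Idh2*, *Bcat1*, *Got2*, *Slc7a11*, *Pcx* and *Pdk1*, all lie to the right of 0.

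**Figure D5:**
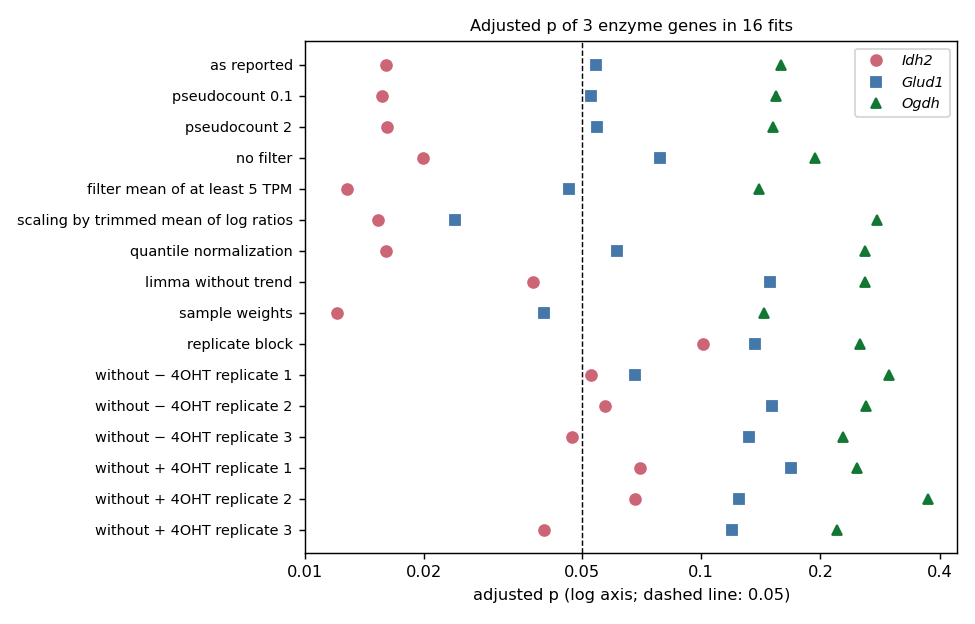
Adjusted p from limma (horizontal log axis) of *Idh2*, *Glud1* and *Ogdh* in the fit as reported and in 15 alternatives; the dashed line marks 0.05. *Idh2* lies left of the line in 10 of the 15 alternatives, *Glud1* in 3 and *Ogdh* in 0.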

How the data were processed

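RNA of 3 wells per group was measured by sequencing of polyA libraries. The authors trimmed the reads with Trim Galore and quantified them with Salmon against the mouse transcriptome, with versions, build and annotation not given in the sources used here, and deposited TPM per Ensembl gene, scaled to a sum of 1000000 per well. Beside these 6 columns, the authors deposited 4 columns of their own comparison, a log2 fold change, a log2 average level, a score (F statistic) and a p-value, which were not used. Symbols and positions came from GENCODE M21 on GRCm38, matched by identifier, which need not be the authors' release.

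The test was limma-trend (limma 3.58.1, R 4.3.3) on log2(TPM + 0.5), without a block, with Benjamini-Hochberg adjustment over 15382 genes (mean 1 TPM or more). Since TPM are not counts, the count test of the study was not used. Fold changes on this scale understate the change of low genes. The 8 genes, the lists and the tests were chosen with earlier results of these data known. The genes named from a list were those with the largest called rise and fall or, where none was called, the lowest unadjusted p, beside the partners *Dlst* and *Dld* (1 more partner is not reported here) and genes at least 90% identical to one of the 8 over at least 50 bases (BLAST 2.17.0). Of the identical ones, values are given for *Glud-ps*, and the 21 for *Idh3b* as a count. Motifs were chosen after the values were seen. Ratios were tested with scipy 1.17.1 under Python 3.11.15. The test was tried on simulated data first, where it missed most genes with a log2 change of 1. A gene that was not called is not shown to be unchanged. Alternatives were other pseudocounts, filters, scalings and variance models, the replicate number as a block, and leaving out each well.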

Additional observations from a re-analysis of the deposited data

How the results depend on the processing

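Of the 8 genes, *Idh2*, *Idh3a*, *Idh3b*, *Idh3g*, *Glud1* and *Ogdh* kept their sign in all 15 alternatives, while *Aco1* kept it in 12 and *Idh1* in 14. The sign of *Aco1* turned with sample weights (0.13), and its log2 fold change was from -0.24 to 0.38 when 1 well was left out, that of *Idh1* from -0.048 to 0.0068. The cause was not tested. The number of the 8 genes called was 2 with a filter of at least 5 TPM, with trimmed-mean (TMM-type) scaling and with sample weights, where *Glud1* joined *Idh2* (adjusted p = 0.0463, 0.0239 and 0.0402 from limma). It was from 0 to 1 when 1 well was left out. *Glud1* then had an adjusted p from 0.0679 to 0.169, and *Idh2* one from 0.0401 to 0.0699, with fewer samples in each fit.

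Over all tested genes, 542 were called higher and 303 lower. Leaving out 1 well gave 112 to 318 higher and 63 to 147 lower, and 0 to 4 of the list genes. Trimmed-mean scaling gave 459 higher and 473 lower, so that 49.2% rather than 64.1% of the calls were higher, and quantile normalization gave 428 and 434 (49.7%). These scalings moved the median over all tested genes (log2 scale) from 0.14 to 0.032 and -0.0047. No filter gave 415 higher and 219 lower. With the replicate number as a block, 31 genes were called higher and 16 lower, none of the 8 genes (0) and 0 list genes, and *Idh2* had an adjusted p of 0.101. The deviations of equally numbered wells correlated by 0.024, 0.034 and 0.084, so the numbers were not treated as pairs, although 5 of the 6 wells correlated best with their own number (OSKA + 4OHT replicate 1 did not). With a pseudocount of 0.5 the 7 ratios kept their sign. Without 1 well the differences in *Idh1* to *Aco1* and *Idh3a* to *Idh3g* turned sign for some wells and the other 5 did not. Depth is unknown, so no counting interval can be given.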

Other observations

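*Nnt*, the transhydrogenase that supplies mitochondria with NADPH, is listed under 2 Ensembl identifiers, and this was noticed after its values were seen. The first row stood at 30.9, 16.7 and 6.27 TPM without 4OHT and at 0.540, 25.6 and 19.2 TPM with it. The second row stood at 0, 8.23 and 16.1 TPM without 4OHT and at 24.2, 0 and 6.15 TPM with it. Their sum was 30.9, 25.0 and 22.3 TPM against 24.8, 25.6 and 25.4 TPM. Where 1 row was low the other was high, and the sum varied less than either row. The 2 identifiers cover nearly the same stretch of chromosome 13 on the minus strand, from 119335448 to 119408997 and from 119335528 to 119408952. Both rows count among the 10 of the regulator list, which holds 9 symbols.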
